A study of Rattus norvegicus with 10 samples.

Results

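Ccnd1, Cdk14 and Atm, 3 of the 20174 genes with a probe on the array, were examined in the left ventricle of male Wistar rats that had received dexmedetomidine (DEX), a sedative agonist of alpha-2 adrenoceptors, or saline. The 3 probes were ENSRNOG00000020918 for Ccnd1, ENSRNOG00000007151 for Cdk14 and ENSRNOG00000029773 for Atm. They were chosen with the difference between the groups already known, so the levels in the groups are given as a description and without a test. The rats weighed 250 to 350 g. In the 5 rats of the DEX group the drug ran into the tail vein for 30 min, with 10 min at 6 mcg/kg/h and 20 min at 0.7 mcg/kg/h, before a washout of 5 min. The 5 control rats were infused with saline alone over the same time. RNA of each rat was read on 1 array of 1 colour (Cy5). Neither group had been put through ischemia when the tissue was taken, and ages were not given in the sources used here.

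Cyclin D1, encoded by Ccnd1, is the regulatory subunit that switches on the kinases Cdk4 and Cdk6 in the G1 phase, when a cell commits to copying its DNA. Cdk14 is a kinase of the same wider family that is recruited by cyclin Y at the plasma membrane and phosphorylates the Wnt co-receptor Lrp6. Atm is the kinase that is activated by DNA double-strand breaks and signals to p53 and to the cell cycle checkpoints. Most cardiomyocytes of an adult heart have left the cell cycle, and other cells of the ventricle, such as endothelial cells and fibroblasts, can divide. RNA was taken from whole tissue, in which fewer cells of a type and less RNA per cell cannot be told apart.

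In the GRCr8 assembly, RefSeq places Ccnd1 at chr1:209518288-209527986, Cdk14 at chr4:29619237-30213651 and Atm at chr8:62724939-62829040. The 250 bases before each annotated start in the RefSeq promoter table are printed to show what sequence precedes the genes described here. The table has 2 starts for Cdk14 and 1 for Atm. Each window lies inside the span of its own gene, since other transcripts of the gene begin further upstream. Capitals mark matches, on either strand, to the GC box (GGGCGG) and to the E-box (CACGTG). The windows were also searched on both strands for CCAAT, for the cAMP response element TGACGTCA and for the E2F site TTTCGCGC. The windows are chr4:29620967-29621216 (plus strand), chr4:29739561-29739810 (plus strand) and chr8:62828630-62828879 (minus strand), in the order printed.
Cdk14, start 1: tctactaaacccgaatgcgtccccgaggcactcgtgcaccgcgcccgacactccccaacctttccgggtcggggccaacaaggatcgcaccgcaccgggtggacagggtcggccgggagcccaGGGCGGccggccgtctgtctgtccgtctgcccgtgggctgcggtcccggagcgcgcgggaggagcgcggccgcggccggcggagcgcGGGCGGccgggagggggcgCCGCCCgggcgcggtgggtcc
Cdk14, start 2: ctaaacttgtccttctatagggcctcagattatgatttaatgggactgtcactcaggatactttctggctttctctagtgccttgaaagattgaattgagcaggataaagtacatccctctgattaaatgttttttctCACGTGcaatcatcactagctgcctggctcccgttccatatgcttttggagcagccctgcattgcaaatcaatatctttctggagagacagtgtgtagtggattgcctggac
Atm: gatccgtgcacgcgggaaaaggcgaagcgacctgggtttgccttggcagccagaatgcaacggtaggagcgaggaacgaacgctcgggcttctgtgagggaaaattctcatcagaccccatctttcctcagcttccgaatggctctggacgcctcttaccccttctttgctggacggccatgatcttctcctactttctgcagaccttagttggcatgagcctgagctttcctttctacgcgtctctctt

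The window of Cdk14 start 1 was 77.6% G and C, above that of 98.0% of the 33469 promoters in the table, which had a median of 51.2%. It held 3 GC boxes, at 127, 40 and 21 bases before the start, the last of them on the reverse strand. A GC box occurred in 30.5% of all promoter windows of this length. The window of Cdk14 start 2 was 43.2% G and C and held 1 E-box, at 112 bases before the start, a motif found in 5.59% of all windows. The Atm window was 54.8% G and C and held none of the 5 motifs, of which CCAAT occurred in 34.02%, TGACGTCA in 1.59% and TTTCGCGC in 0.248% of all windows. The arrays measured RNA and not the use of either start.

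Signals are normalised intensities before rounding, that is, the spot intensity above the mean of the blank spots of its array, scaled so that the median of the detected probes was 25. Precision is limited by the 10 arrays, and probes of different genes are not compared in level. The blank spots had a mean of 57.1 to 60.5 on the control arrays and of 59.9 to 62.6 on the DEX arrays. The median signal of the 12718 probes that every array detected was 32.0 to 41.3 in controls and 29.1 to 36.3 in the DEX group. Tissue identity could not be checked by detection. Of the 27 marker genes used, 8 had a symbol here, and symbols were given only to probes detected on all 10 arrays. The cardiomyocyte gene Ttn, which encodes titin, was at 24.6 ± 5.05 (SD, n = 5) in controls and 16.1 ± 1.75 (SD, n = 5) in the DEX group.

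All 3 genes were detected on all 10 arrays, and each had a lower mean with DEX, past the thresholds of the study's methods (1.5-fold and an unadjusted p-value, here from limma, under 0.05). By the same thresholds, 2.7% of the 14519 probes tested were lower. Because the genes were chosen on this contrast, nothing can be read from their count. No probe of the array passed a Benjamini-Hochberg adjusted p-value of 0.05 in limma (0 of 14519, lowest adjusted p = 0.148), and 2100 had an unadjusted p-value under 0.05. The median probe had a log2 difference of -0.17 between the groups. In none of the 3 genes were all DEX rats below all control rats, a pattern that 1.44% of the probes tested showed. The split of the calls depended on the scaling: 392 probes were lower and 64 higher as reported, 216 and 121 with scaling on the 75th percentile, 233 and 112 without scaling, 118 and 195 after quantile normalization, and 114 and 193 when the arrays were scaled on the probes detected on all of them.

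The signal of Ccnd1 was 171, 142, 114, 130 and 116 in control rats 1 to 5. It was 122, 82.6, 71.7, 69.3 and 79.4 in DEX rats 1 to 5. Of the DEX rats, 4 were below the lowest control, and DEX rat 1 lay within the control range, above controls 3 and 5. The mean was 135 ± 23.3 (SD, n = 5) in controls and 85.0 ± 21.4 (SD, n = 5) in the DEX group. On the log2 scale the difference was -0.68 (SE 0.17), and -0.51 relative to the median probe. The coefficient of variation was 17.3% in controls and 25.2% in the DEX group. The log2 SD was 0.24 in controls, larger than in 66.9% of the 1000 probes nearest to Ccnd1 in mean signal. In the DEX group it was 0.33, larger than in 92.1% of them. Every Ccnd1 spot was bright, from 44.1 to 122 times the detection limit of its array. The difference was already present in the spot intensities before any subtraction, at 205 ± 19.2 (SD, n = 5) in controls and 159 ± 23.8 (SD, n = 5) in the DEX group.

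The signal of Cdk14 was 155, 120, 119, 89.2 and 116 in control rats 1 to 5. In DEX rats 1 to 5 it was 113, 76.0, 41.0, 14.7 and 69.8. Again 4 of the 5 DEX rats were below the lowest control, while DEX rat 1 lay within the control range, above control 4. The mean was 120 ± 23.3 (SD, n = 5) in controls and 63.0 ± 37.3 (SD, n = 5) in the DEX group. The DEX rats spanned a 7.71-fold range and the controls a 1.74-fold range, with coefficients of variation of 59.2% and 19.5%. The log2 SD of the DEX group was 1.14, larger than in 99.4% of the 1000 probes nearest to Cdk14 in mean signal, and the log2 SD of the controls was 0.28, larger than in 81.6% of them. Without DEX rat 4, the other 4 DEX rats spanned a 2.76-fold range with a log2 SD of 0.60, which was still larger than in 98.9% of the 1000 nearest probes on the same 4 arrays. The spread of Cdk14 among the DEX rats was thus wide for a probe of its brightness with or without that rat, and its size rested on that rat.

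The log2 difference of Cdk14 was -1.20 (SE 0.42), and -1.03 relative to the median probe. Among the 14519 probes tested it had rank 8 from the lowest, while 0.723% of the probes had a larger standard error. Much of the log2 difference rested on DEX rat 4. Without this rat it was -0.74, and as a ratio of linear group means, with all rats, it was -0.93 on the log2 scale. The Cdk14 signal of DEX rat 4 was 2.26 log2 units below the mean of the other DEX arrays, and 0.0758% of the probes tested were further below. The 19 probes within 3 spot positions of it differed by a median of -0.05, but ranged from -2.68, lower than Cdk14 itself, to 0.94. The part of a local fault of the array in this value was not tested. The Cdk14 spot was still 9.35 times the detection limit of its array. Spot intensities before subtraction were 189 ± 19.1 (SD, n = 5) in controls and 134 ± 42.4 (SD, n = 5) in the DEX group.

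The signal of Atm was 6.003, 2.73, 4.53, 6.16 and 3.82 in control rats 1 to 5. In DEX rats 1 to 5 it was 3.17, 3.44, 2.17, 2.65 and 2.93. Control rat 2 was as low as the DEX group, with only DEX rats 3 and 4 below it, and the other 4 controls were above every DEX rat. The mean was 4.65 ± 1.46 (SD, n = 5) in controls and 2.87 ± 0.487 (SD, n = 5) in the DEX group. The spread ran the other way from that of Cdk14, with a coefficient of variation of 31.4% in controls and 17.0% in the DEX group. The log2 SD was larger than in 66.2% of the 1000 probes nearest to Atm in mean signal in controls, and than in 12.9% in the DEX group. The log2 difference was -0.65 (SE 0.22), and -0.48 relative to the median probe. Leaving out control rat 1, control rat 4 or DEX rat 3 brought it to -0.54, -0.53 and -0.55, under 1.5-fold, and leaving out control rat 2 brought it to -0.83.

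**Figure D1:**
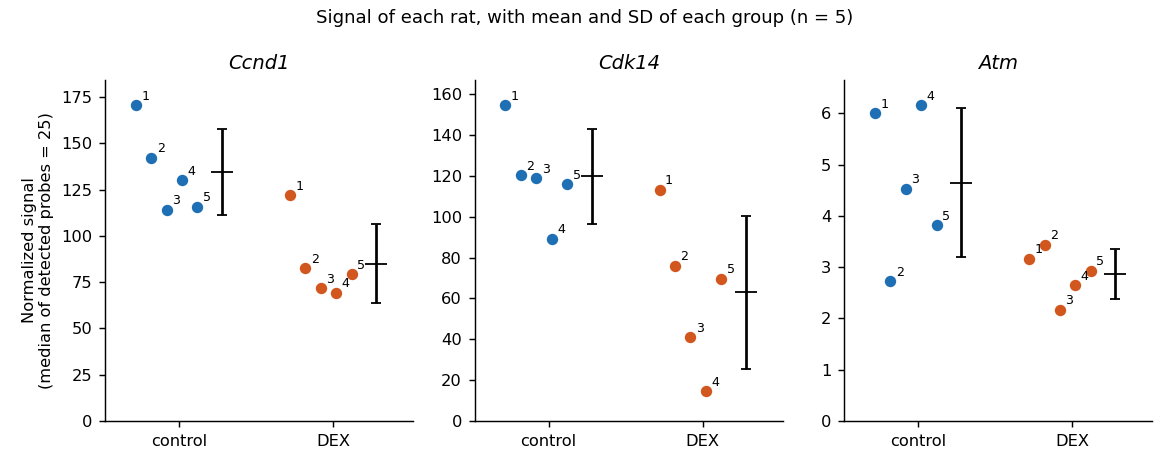
Normalized signal (linear axis from 0, median of detected probes set to 25) of Ccnd1, Cdk14 and Atm in each control rat and each DEX rat, with numbers for the rats and bars for the mean and SD (n = 5). DEX rat 1 lies among the controls for Ccnd1 and Cdk14, DEX rat 4 is the lowest for Cdk14 at 14.7, and control rat 2 lies among the DEX rats for Atm.

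Atm lay close to the detection limit, at 1.596 to 4.30 times the limit in controls and 1.39 to 2.29 times in the DEX group. In the authors' table, which is rounded to whole numbers, it read 6, 3, 5, 6 and 4 in the controls and 3, 3, 2, 3 and 3 in the DEX rats. Its spot intensities before subtraction were not lower in the DEX group, at 63.9 ± 2.33 (SD, n = 5) in controls and 64.7 ± 1.25 (SD, n = 5) in the DEX group. The difference arose after the blank mean was taken off, which left 5.09 ± 1.66 (SD, n = 5) and 3.29 ± 0.621 (SD, n = 5). The mean of the blanks that was taken off was 58.8 ± 1.43 for controls and 61.4 ± 1.01 for DEX (SD, n = 5). Without its subtraction the log2 difference of Atm was -0.045, and with the negative control spots in place of the blanks it was -0.48. The part of the blank level in the Atm difference was not tested in any other way than by these settings and by a fit with the blank level as a covariate, which gave -0.68 (SE 0.35).

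**Figure D2:**
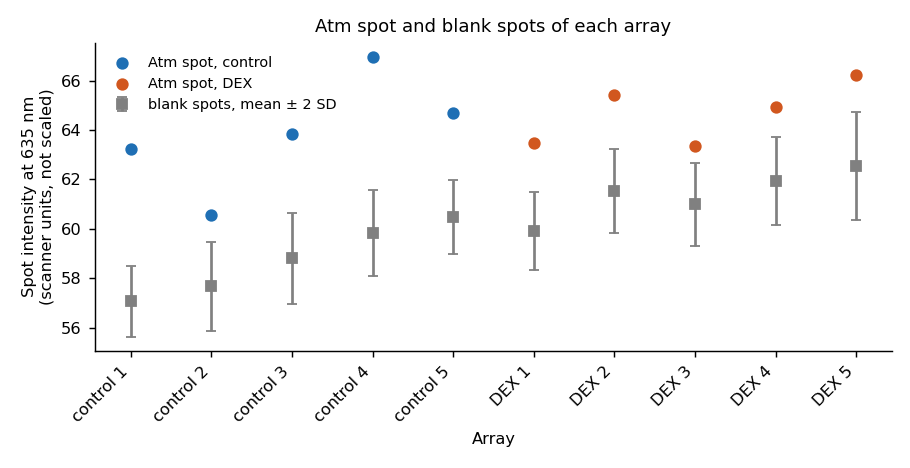
Spot intensity of Atm before any subtraction, and the mean of the blank spots with bars of 2 SD, for each of the 10 arrays, in scanner units on a linear axis that does not start at 0. The Atm spots are at a similar height in both groups, and the blank mean is higher on most DEX arrays, so that the distance between them is smaller in the DEX group (3.29 against 5.09).

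Whether the genes moved together from rat to rat was tested after the mean of each group had been taken off, which removes the difference used to choose them. Over the 10 arrays, Ccnd1 and Cdk14 had a Pearson's r of 0.68 (exact permutation within groups, two-sided, p = 0.0840, adjusted p = 0.252 over 3 pairs) and a Spearman's rho of 0.72 (exact permutation p = 0.0319, adjusted p = 0.0956). Both genes were highest for their group in control rat 1 and DEX rat 1, and lowest for the DEX group in DEX rat 4. Without control 1 and DEX 1 the r was 0.53 (exact permutation p = 0.116). The covariation of this pair thus did not pass the threshold after adjustment.

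Atm followed neither gene closely. With Ccnd1 its r was 0.34 (exact permutation p = 0.312, adjusted p = 0.368) and its rho 0.42 (exact permutation p = 0.235, adjusted p = 0.353), and the r depended on which arrays were kept. Without control 1 and DEX 1 the r was -0.01, without control 2 it was 0.62, and with 1 array left out it ran from 0.15 (without control 1) to 0.62. With Cdk14 its r was 0.24 (exact permutation p = 0.368, adjusted p = 0.368) and its rho 0.28 (exact permutation p = 0.367, adjusted p = 0.367). Without DEX 1 and DEX 4 that r was 0.29 (exact permutation p = 0.449). Control rat 2 held the lowest Atm signal of its group while its Ccnd1 and Cdk14 signals were the second highest of theirs.

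**Figure D3:**
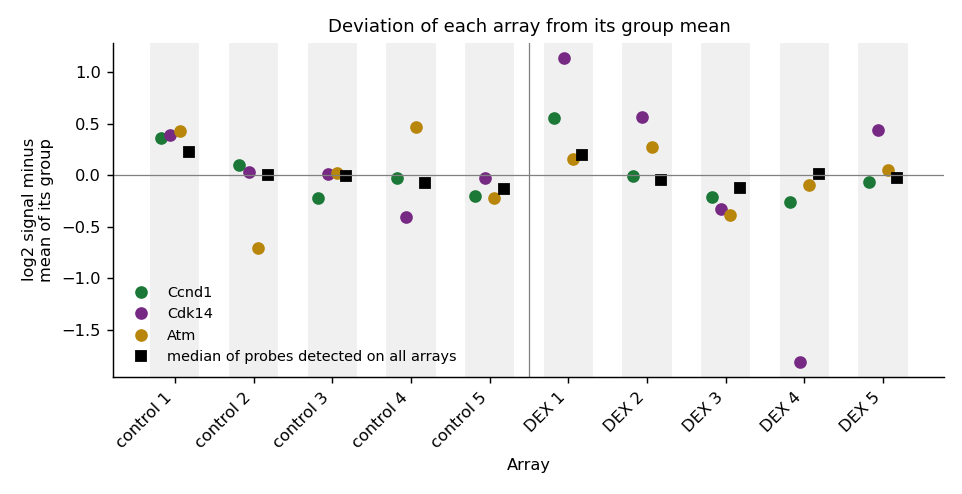
Log2 signal of Ccnd1, Cdk14 and Atm on each array minus the mean of its group, with the same deviation of the median of all probes detected on every array (squares). Control 1 and DEX 1 are above 0 for all 3 genes and for the median probe, and DEX 4 is far below 0 for Cdk14 alone.

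The deviations of the genes were also set against those of 2 measures of the whole array, 6 relations in all. With the median of the probes detected on all arrays, Ccnd1 had an r of 0.83 (exact permutation p = 0.0123, adjusted p = 0.0617) and a rho of 0.42 (exact permutation p = 0.248, adjusted p = 0.443). The r was 0.24 without control 1 and DEX 1 (exact permutation p = 0.601), so that this relation rested on those arrays. With the blank mean the r of Ccnd1 was -0.73 (exact permutation p = 0.0206, adjusted p = 0.0617) and the rho -0.55 (exact permutation p = 0.117, adjusted p = 0.443), and without control 1 and control 5 the r was -0.63 (exact permutation p = 0.124). For Cdk14 the r was 0.37 with the median and -0.38 with the blank mean, and for Atm 0.37 and 0.03, with adjusted p-values of 0.437 to 0.936 by exact permutation.

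A scaling on the common probes, those detected on all 10 arrays, narrowed the spread of Ccnd1, from a log2 SD of 0.24 to 0.14 in controls and from 0.33 to 0.23 in the DEX group. On this scale Ccnd1 was 138, 135, 109, 131 and 121 in control rats 1 to 5 and 113, 90.1, 82.4, 72.2 and 85.5 in DEX rats 1 to 5. DEX rat 1 was then above control 3 only, and the log2 difference was -0.53. The wide spread of Cdk14 in the DEX group stayed at a log2 SD of 1.10, with a log2 difference of -1.05. The log2 difference of Atm was -0.50, and only DEX rat 3 remained below control rat 2.

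The covariation of the genes was also placed among all probes detected on every array. With Ccnd1, the 12717 other probes had a median r of 0.50, and 50.6% had an r over 0.5, so that the r of 0.68 between Ccnd1 and Cdk14 was reached or passed by 22.9% of them. With Cdk14 the median r was 0.19 and 15.2% were over 0.5, and with Atm the median was 0.22 and 14.3% were over 0.5. Counted from Cdk14, the r of 0.68 was reached or passed by 4.21% of the probes. All probes share the same arrays and the same scaling. With scaling on the common probes the median r was 0.02 with Ccnd1, -0.04 with Cdk14 and 0.00 with Atm. On that scale 10.1% of the probes had an r over 0.5 with Ccnd1, while Ccnd1 and Cdk14 kept an r of 0.72 (exact permutation p = 0.0926), which 2.28% of the probes reached or passed. How common such an r was among the probes therefore depended on the scaling and on which gene of the pair it was counted from.

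**Figure D4:**
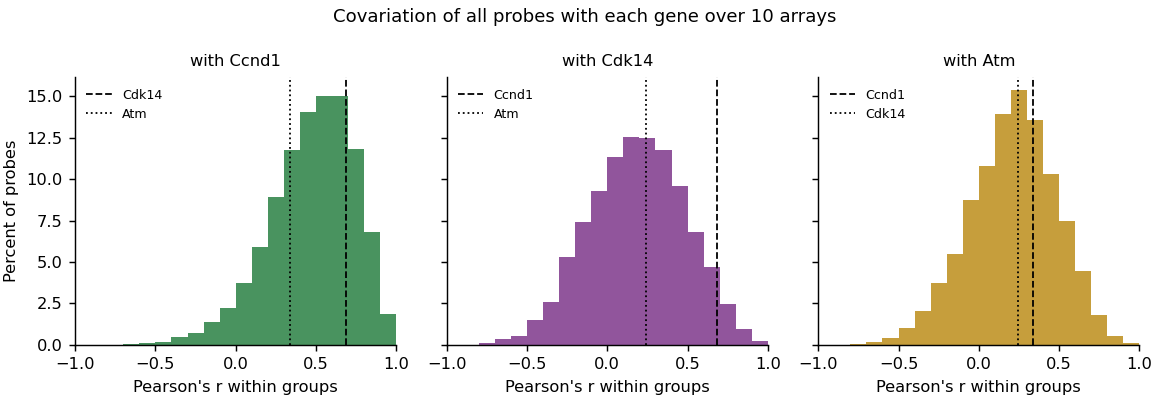
Distribution of Pearson's r, within groups over 10 arrays, of 12717 probes with Ccnd1, Cdk14 and Atm (percent of probes in bins of r), with lines for the other members. The probes lie around a median of 0.50 for Ccnd1, and around 0.19 and 0.22 for Cdk14 and Atm.

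The mRNAs most like each gene were sought among the probes with a symbol, 164 for each, all of which the study had picked for their difference between these groups. For Ccnd1 they included Nova1, a neuronal splicing regulator (r 0.91, rank 177 of 12717), and Pnpla6, a phospholipase (r 0.88, rank 357). Without control 1 and DEX 1 their r was 0.69 and 0.21. For Pnpla6 the likeness to Ccnd1 therefore rested on those arrays.

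For Cdk14 the most alike were Dagla, which makes the endocannabinoid 2-arachidonoylglycerol (r 0.91, rank 21), Qser1 (r 0.90, rank 32) and Gcnt2, a glycosyltransferase (r 0.89, rank 35). Like Cdk14, they were lowest in DEX rat 4, at signals of 5.22, 2.09 and 3.86, against DEX group means of 8.79 ± 2.25, 9.66 ± 4.79 and 7.21 ± 2.59 (SD, n = 5). The detection limit of that array was 1.57, so the Qser1 value lay near it. These mRNAs were picked for their likeness to Cdk14, so the shared low value follows from the choice. Without DEX 4 the r with Cdk14 was 0.71, 0.55 and 0.74.

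For Atm the most alike was Fer, a tyrosine kinase (r 0.92, rank 3), whose signal was 6.07, 3.30, 4.95, 6.18 and 4.59 in the controls and 3.01, 4.05, 1.86, 2.80 and 3.09 in the DEX rats. Control rat 2 was the lowest control for Fer as for Atm, and the r was 0.89 or more whichever array was left out. Like Atm, Fer lay near the detection limit, at 1.86 against a limit of 1.56 in DEX rat 3. In control rat 2 it was 3.30 against 1.71. The same blank mean was taken off both probes on each array, and its part in this r was not tested. Next came Fap, a protease of activated fibroblasts (r 0.80, rank 72), and Triobp, an actin-binding protein (r 0.79, rank 82). Without control 2 their r with Atm was 0.70 and 0.64. These values of r have no p-value, since the partners were picked for being the highest.

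Few other genes of the pathways could be read, because 9 of 98 listed genes had a symbol here, and each was among the mRNAs the study had chosen on these arrays, so that their direction is not independent evidence. Of the 165 probes with a symbol, 151 had a lower mean with DEX and 140 of these passed the thresholds used here, against 2.7% of all probes tested, so the counts that follow were largely set by how the symbols were obtained. Of 45 cell cycle genes, 3 had a symbol, namely Ccnd1, Cdk14 and Cdc14b. Ccnd1 and Cdk14 were past the thresholds, both lower, and the median log2 difference of the 3 was -0.68, against -0.17 over all probes. Cdc14b, a phosphatase that counteracts cyclin-dependent kinases, was 7.83 ± 2.16 (SD, n = 5) in controls and 5.22 ± 1.25 (SD, n = 5) with DEX. The difference of its log2 means was -0.57 (SE 0.21), under 1.5-fold by this measure. By the ratio of linear means the study listed it as past 1.5-fold.

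Of 35 p53 targets and genes of the DNA damage response, 4 had a symbol and all 4 were past the thresholds and lower (2.7% of all probes tested), with a median log2 difference of -0.66. Beside Atm and Ccnd1 they were the death receptor Fas, at 7.21 ± 1.02 (SD, n = 5) in controls and 4.74 ± 1.48 (SD, n = 5) in the DEX group, and the ectodysplasin receptor Eda2r, at 6.27 ± 0.886 (SD, n = 5) and 3.14 ± 0.473 (SD, n = 5). The log2 differences were -0.65 (SE 0.20) and -0.997 (SE 0.14). For Eda2r every DEX rat was below every control, as for 1.44% of all probes tested. In the DEX group Eda2r ran from 2.66 to 3.87, and the lowest Fas signal was 2.996. The detection limits of the DEX arrays were 1.397 to 1.755, so that Eda2r, like Atm, lay close to the limit in this group. The part of the blank level in the differences of Fas and Eda2r was not tested.

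Of 25 genes of the Wnt pathway, in which Cdk14 acts at the receptor and Ccnd1 is a known target, 5 had a symbol and all 5 were past the thresholds and lower (2.7% of all probes tested), with a median log2 difference of -0.76. The other 3 encode inhibitors or modulators. Dact1, which binds Dishevelled, was 24.3 ± 5.32 (SD, n = 5) in controls and 14.2 ± 2.10 (SD, n = 5) in the DEX group. Every DEX rat was below every control, as for 1.44% of all probes tested. The secreted antagonist Sostdc1 was 14.01 ± 4.86 and 7.79 ± 2.70 (SD, n = 5), and Mcc was 28.1 ± 6.22 and 18.4 ± 3.82 (SD, n = 5), both with overlapping groups.

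Markers of cell types could be read only where the study had listed them as regulated on these arrays, so their direction says nothing of the cell types. Of the 8 markers with a symbol, 7 were lower past the thresholds (2.7% of all probes tested), namely Ttn, Ky and Myocd of muscle cells, Arhgef15 and Apold1 of endothelium, Fap of fibroblasts and Slc4a1 of red cells, with log2 differences of -0.79 to -0.59. The macrophage chemokine Ccl3 was higher, at 7.26 ± 1.63 (SD, n = 5) in controls and 11.1 ± 3.197 (SD, n = 5) in the DEX group. The part of these cell types in the levels of Ccnd1, Cdk14 and Atm was not tested.

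The values that the scanner files give as background tracked the intensity of each spot, with medians of 97.7% of the spot intensity for Ccnd1, 94.99% for Cdk14 and 96.9% for Atm. On control array 1 they were 218 for Ccnd1, 230 for Cdk14 and 55.9 for Atm, where the blank spots averaged 57.1, so they were not at one level over the array. In the setting that combined a normexp correction with these values, an offset of 50 and quantile normalization, the log2 differences were -0.074 for Ccnd1, -0.030 for Cdk14 and 0.0017 for Atm. With the blank level as a covariate, the log2 difference was -0.24 (SE 0.21) for Ccnd1 and -0.53 (SE 0.66) for Cdk14. Of 23 alternative settings, the difference stayed past 1.5-fold in 18 for Ccnd1, in 21 for Cdk14 and in 12 for Atm. Among these settings, 10 only left out 1 array, with the signals unchanged. Ccnd1 fell under 1.5-fold with quantile normalization (-0.52) and with scaling on the common probes (-0.53). Atm did so as well (-0.44 and -0.50). It was also under 1.5-fold with scaling on the 75th percentile (-0.57), without scaling (-0.58) and with the negative control spots (-0.48).

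**Figure D5:**
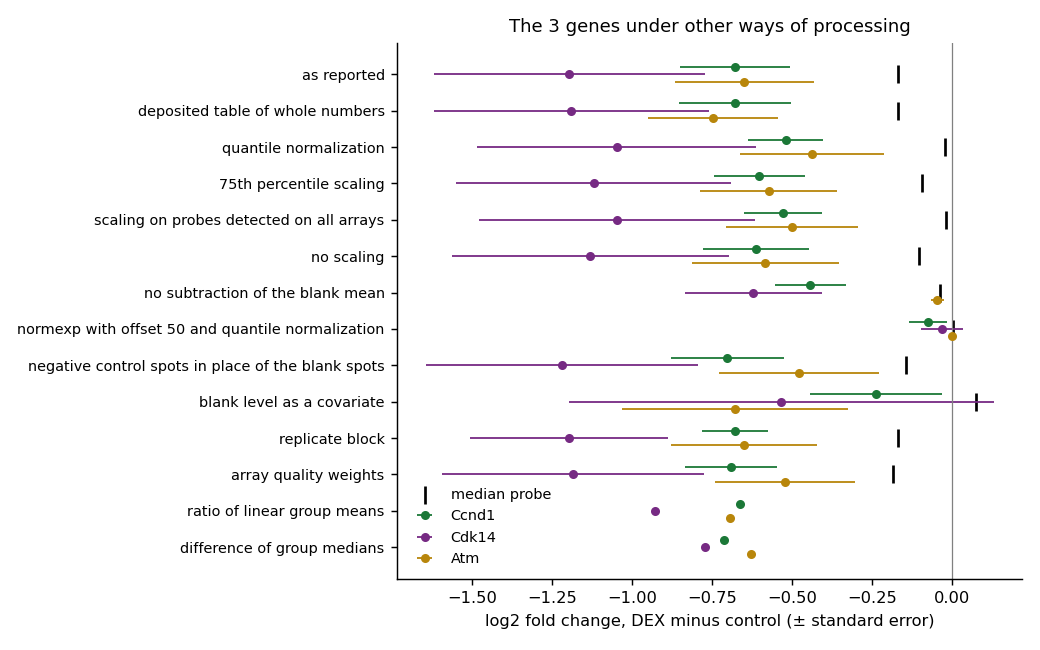
Log2 difference, DEX minus control, of each gene as reported and under the alternative ways of processing, with bars for the standard error where a fit gave one and black marks for the median probe. Ccnd1 and Cdk14 stay below 0 under every setting drawn, and Atm is near 0 without subtraction of the blank mean and with normexp, an offset and quantile normalization combined.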

How the data were processed

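mRNA was measured with a 3D-Gene rat array in the left ventricle of 5 control and 5 DEX rats, 1 array each. The authors deposited scanner intensity values (Cy5) for every spot and a table of normalized intensity values in whole numbers. The methods state the scaling to a median of 25. The subtraction of the blank mean (5% of the blanks left out on each side) and the detection limit (2 SD above it) were found by setting the scanner values against the table, of which 142667 of 142668 values were then equal after rounding.

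The files name probes by Ensembl identifier only. Symbols came from matching ratios and t-test p-values to the study's lists of regulated mRNAs, used for identity alone, which named 165 probes. Positions and promoter windows are from RefSeq (GRCr8).

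Log2 signals, in which a spot that was not detected took the lowest signal detected on its array, were fitted with limma 3.58.1 in R 4.3.3 over the probes detected on at least 3 arrays of a group. The step was tested on simulated data in which each probe varied independently, so shifts shared by the probes of an array were not covered. Covariation was tested by exact permutation within groups (14400 arrangements) in Python 3.11.15 with scipy 1.17.1. Named were the 3 genes, the listed pathway genes and markers with a symbol, and the 3 most alike mRNAs of each gene; some of the genes this rule names are not reported here. The members and lists were chosen with earlier results of these data known. Alternatives covered background, scaling, filter, test, covariate, block and each array left out; the negative control spots were added after the data were seen.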

Additional observations from a re-analysis of the deposited data

Results flagged for a closer look

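In 3 of 54 groups of 5 rats, over 24 genes and 3 array measures, the most extreme value stood apart from the other 4 by more than 0.71 of the range (Dixon's limit), where chance gives about 1 in 20. All 3 were the highest value of the DEX group, in DEX rat 1: Ccnd1 (0.749 of the range), Ky (0.741) and Pnpla6 (0.805). Pnpla6 was among the genes for its high r with Ccnd1 (0.88, and 0.21 without control 1 and DEX 1). Its flag is therefore not independent of that of Ccnd1. On the log2 scale Ccnd1 (0.69) and Ky (0.68) were under the limit, and Pnpla6 (0.74) was over it, as were, in other rats, the lowest values of Mcc in control rat 4 (0.73) and of Qser1 in DEX rat 4 (0.78). That Qser1 signal, 2.09, lay near the detection limit of its array, 1.57. DEX rat 1 also had the highest median of the common probes in its group, at 36.3. Without this rat the log2 difference of Ccnd1 was -0.82. The part of the array in these values was not tested.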

How the results depend on the processing

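A combined setting (normexp, an offset of 50 and quantile normalization) is called the combined setting here. The log2 difference of Ccnd1 moved beyond the spread between rats under it (-0.074) and when the blank level was a covariate (-0.24), that of Cdk14 under the combined setting (-0.030), and that of Atm without blank subtraction (-0.045), while the combined setting turned Atm to 0.0017. With 1 array left out they ranged from -0.82 to -0.59, -1.48 to -0.74 and -0.83 to -0.53. The count of probes past the thresholds, 456 as reported, was 13 without blank subtraction, 178 under the combined setting, 298 over probes detected on all arrays, 303 with Welch's test, and 279 (without control 1) to 738 (without control 5) with 1 array left out, or 707 without DEX 1. Negative control spots gave 190 lower and 237 higher probes, and the blank covariate 79 and 255. The r of Ccnd1 and Cdk14 passed an unadjusted exact permutation p of 0.05 without blank subtraction (0.75), as Spearman's rho (0.72), on linear signals (0.78), without DEX 1 (0.50) and without DEX 4 (0.79), and ran from 0.50 to 0.79 with 1 array left out. The r of Ccnd1 and Atm turned to -0.031 after quantile normalization and to -0.026 under the combined setting, and that of Cdk14 and Atm to -0.52 under the combined setting. The causes were not tested. Across the probes, the deviations of same-numbered rats had an r of -0.10 to 0.07 (0 of 5 pairs over 0.1, against 4 of 20 pairs of other numbers). This r leaves out a shift shared by all probes of an array, so it cannot settle whether the numbers pair the rats. Control 1 and DEX 1 both had the highest median of the common probes in their group, at 41.3 and 36.3. With the replicate number as a block the log2 differences were -0.68 (SE 0.10), -1.20 (SE 0.31) and -0.65 (SE 0.23), and 449 probes passed. Atm lay nearest to the detection limit of the 3 genes, and Cdk14 had the largest standard error (0.42).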
